A study of Arabidopsis thaliana with 6 samples.

Results

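The 10 microRNA genes MIR156A to MIR156F and MIR172A to MIR172D were examined for occupancy by the flowering activator SOC1, a transcription factor of the MADS-domain family, in chromatin immunoprecipitation sequencing (ChIP-seq) of Arabidopsis thaliana shoot apices. They were chosen by locus identifier, and a candidate region was given to a gene where its centre overlapped the gene or lay up to 3000 bp upstream or 1000 bp downstream by the gene's strand. These windows held 15 of the 24032 deposited regions and reached 7 of the 10 genes, 9 regions at MIR156 genes and 6 at MIR172 genes. The 3 gSOC1-GFP libraries came from SOC1p:gSOC1-GFP;soc1-2 plants of line 7, in which genomic SOC1 fused to GFP is driven by the SOC1 promoter. The 3 untagged libraries came from SOC1p:gSOC1;soc1-2 plants of line 9, which carry the same genomic copy without GFP. Both genotypes thus carried a transgene in the soc1-2 mutant background, and each was represented by a single line. They grew for 15 short days and 3 long days and were collected at zeitgeber time 4. Anti-GFP antibody was used on both genotypes, so the untagged libraries give the background. An apex holds several cell types, and binding in a few cells cannot be told apart from weaker binding in many.

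MicroRNAs miR156 and miR172 form a sequential pair in plant ageing. miR156 is abundant in juvenile plants and lowers the transcripts of SQUAMOSA PROMOTER BINDING PROTEIN-LIKE (SPL) transcription factors, and it declines as the plant matures. SPL factors in turn activate MIR172 genes and SOC1, and miR172 represses AP2-type factors that delay flowering.

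Reads in the listed regions numbered 663108, 183668 and 262776 in gSOC1-GFP replicates 1, 2 and 3 and 396326, 41073 and 61963 in untagged replicates 1, 2 and 3. Tagged libraries therefore held 1.67, 4.47 and 4.24 times as many listed reads as their untagged counterparts, and raw counts cannot be compared directly. The replicate 1 libraries stood apart: over all regions their deviations from the group means correlated at 0.498 with each other and between -0.293 and -0.215 with the opposite genotype's other replicates. Deviations within a group cancel out, so the negative values follow at least in part from the positive one. Enrichment is given below as the log2 difference between the scaled counts of a same-numbered tagged and untagged library, with a prior count of 1, and as mean ± SD over 3 pairs. Scaled values are CPM, the counts divided by the library size after TMM normalisation and brought to a common total. These sizes were 543473, 190613 and 284113 in gSOC1-GFP and 242866, 55789 and 80948 in untagged replicates 1, 2 and 3. The enrichments and scaled ratios below use them, and not the listed totals, unless stated.

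One site stood apart, in the upstream sequence of MIR156E (AT5G11977). The region centred 1495 bp upstream of this gene lay on chromosome 5 from 3865550 to 3865886 in TAIR10, was 337 bp long and overlapped no annotated gene at its centre. It held 579, 240 and 229 reads in gSOC1-GFP libraries, against 8, 1 and 0 reads in untagged libraries. Every tagged library was far above every untagged one, and the scaled values were 1065, 1259 and 806 CPM against 32.9, 17.9 and 0. The log2 enrichment was 4.84, 5.83 and 7.56 in pairs 1, 2 and 3, a mean of 6.08 ± 1.38 (SD, n = 3 pairs).

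The lower bound set by counting error was far above 1 in each pair, while the upper bounds were wide or open where the untagged count was 1 or 0. In pair 1 the scaled tagged-to-untagged ratio was 32.3 with an exact binomial 95% interval of 16.3 to 75.3, and in pair 2 it was 70.2 with an interval of 12.5 to 2786. Pair 3 had no untagged read, and the lower bound of its interval was 17.5-fold. These intervals cover counting error only, since the libraries were amplified by PCR. The region took 0.0873%, 0.131% and 0.0871% of listed reads in gSOC1-GFP replicates 1, 2 and 3, and 0.00202% and 0.00243% in untagged replicates 1 and 2. For untagged replicate 3, with a count of 0, the exact binomial 95% interval reached up to 0.00595% of listed reads.

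In the authors' deposited table the MIR156E region ranked 14 of 24032, and its false discovery rate (FDR) was 9.29e-125, 3.66e-43 and 2.74e-38 in replicates 1, 2 and 3. Ordered by FDR within each replicate it was number 14, 16 and 10, so its place was similar in all 3 pairs. Of the 15 regions in the windows, it alone had an FDR below 0.05 in every replicate. That criterion was met by 270 regions (1.12% of all), which are referred to as called. By mean log2 enrichment the MIR156E region was number 2 of all listed regions, and 1 called region was higher. Counted over genes, 1 of the 7 microRNA genes with a region in the windows had such a region, against 1.75% of the 22909 genes with one.

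Across libraries the MIR156E region passed edgeR's quasi-likelihood test with the replicate number as a block, with a log2 fold change of 5.72 (adjusted p = 0.000157 over all regions). That fit called 0.379% of regions as higher in gSOC1-GFP and 0 as lower. Without the block the log2 fold change was 5.74 (unadjusted p = 0.00278, adjusted p = 1.00), and edgeR called 0 regions in the whole table, where 3.17% had an unadjusted p under 0.05. DESeq2, which gave 1.61% of the 5822 regions it adjusted an adjusted p under 0.05, called the MIR156E region (log2 fold change 5.60, adjusted p = 1.62e-07). Without the untagged library of replicate 1 edgeR called it without the block too (log2 fold change 7.03, adjusted p = 2.54e-07), and likewise without the replicate 1 pair (6.98, adjusted p = 1.59e-06). With the block it was called whichever pair was left out, at adjusted p from 1.93e-06 to 0.00247.

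**Figure D1:**
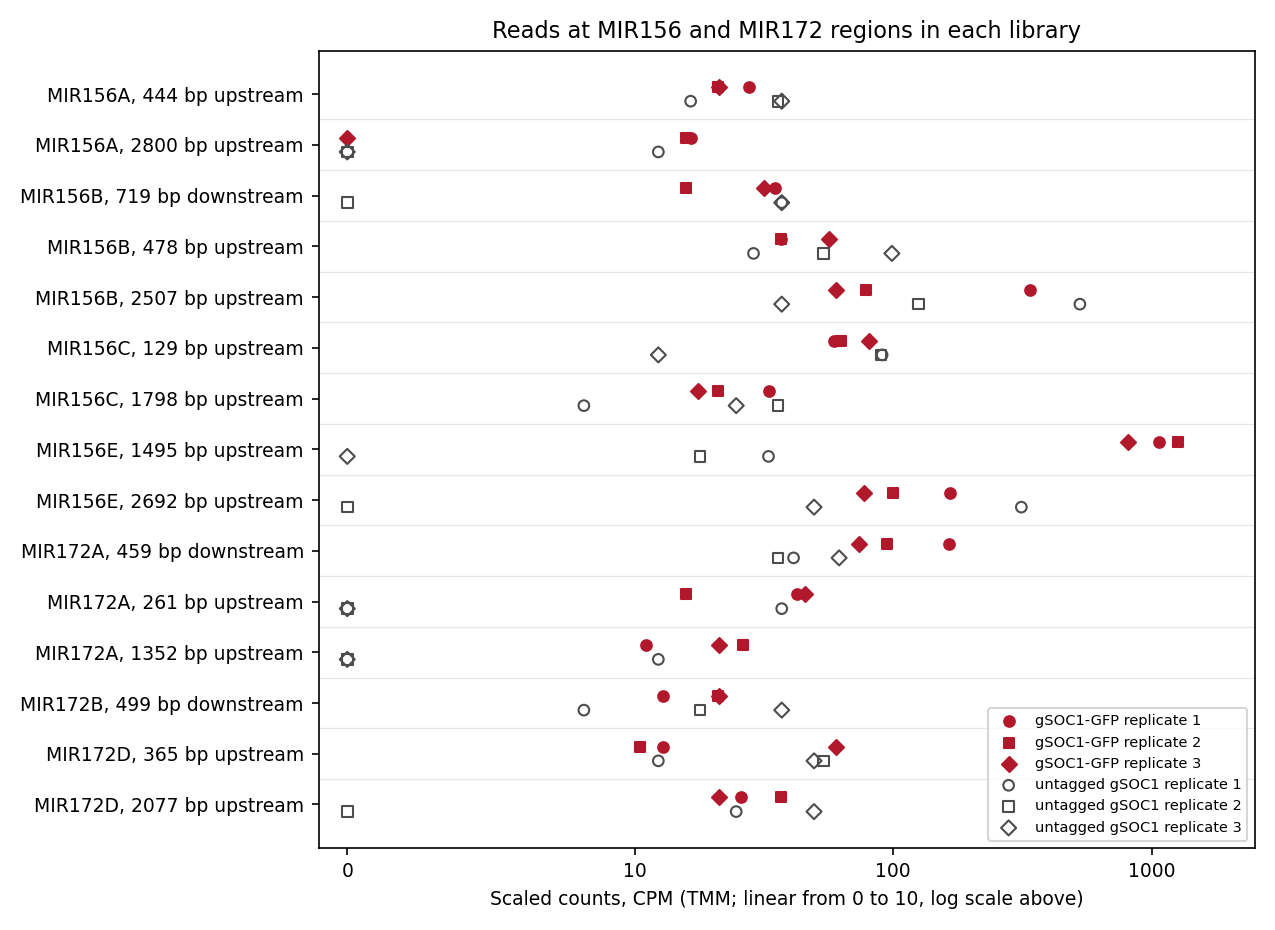
Scaled counts (CPM) in each library at the 15 regions of the MIR156 and MIR172 genes, with filled red symbols for gSOC1-GFP, open grey symbols for untagged gSOC1, and circles, squares and diamonds for replicates 1, 2 and 3 (axis linear from 0 to 10 and logarithmic above). At the region 1495 bp upstream of MIR156E the tagged libraries lie between 806 and 1259 CPM and the untagged ones between 0 and 32.9, while at most other regions the symbols mix.

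The MIR156E region was also within reach of a second gene. It lay in a stretch of 3457 bp between MIR156E and AT5G11970, whose start was 1962 bp away on the other side, so the region was upstream of both genes and somewhat closer to the microRNA gene. Of the 270 regions past the authors' FDR in every replicate, 151 were likewise given to more than 1 gene. Among the 200 such regions with an upstream gene in the window, the median distance to the closest one was 506.5 bp, and 63 lay more than 1000 bp away, as the MIR156E region did. These counts cover called regions only and were not set beside all listed regions. With the upstream window shortened to 1000 bp no called region was given to any of the 10 microRNA genes.

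A second region of MIR156E, centred 2692 bp upstream and 765 bp upstream of AT5G11970, did not share this pattern. It held 90, 19 and 22 reads in gSOC1-GFP libraries, against 76, 0 and 4 in untagged libraries. Scaled, these were 166, 99.7 and 77.4 CPM against 313, 0 and 49.4, so the groups overlapped and untagged replicate 1 was the highest library of all. The log2 enrichment was -0.90, 4.60 and 0.61 in pairs 1, 2 and 3 (1.43 ± 2.84, SD, n = 3), and edgeR with the block gave a log2 fold change of 0.30 (adjusted p = 1.00). In the authors' deposited table its FDR was below 0.05 in replicate 2 alone, at 0.0113, where the untagged library had 0 reads. As many reads as this region had in untagged replicate 1 were reached by 4.98% of all regions.

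The 3 regions most like the MIR156E site, by Euclidean distance over the log2 enrichments of the 3 pairs and among regions past the authors' FDR in every replicate, were not given to any microRNA gene. The closest, at a distance of 1.65, lay 374 bp upstream of SHP2, an ovule and fruit MADS gene, and 1335 bp upstream of HVA22F, with 4.11, 7.19 and 7.00 in pairs 1, 2 and 3. Next came a region 2495 bp upstream of LEJ2 at a distance of 1.68 and one within AT5G58900 at 2.39. All of these values share the same 6 libraries.

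**Figure D2:**
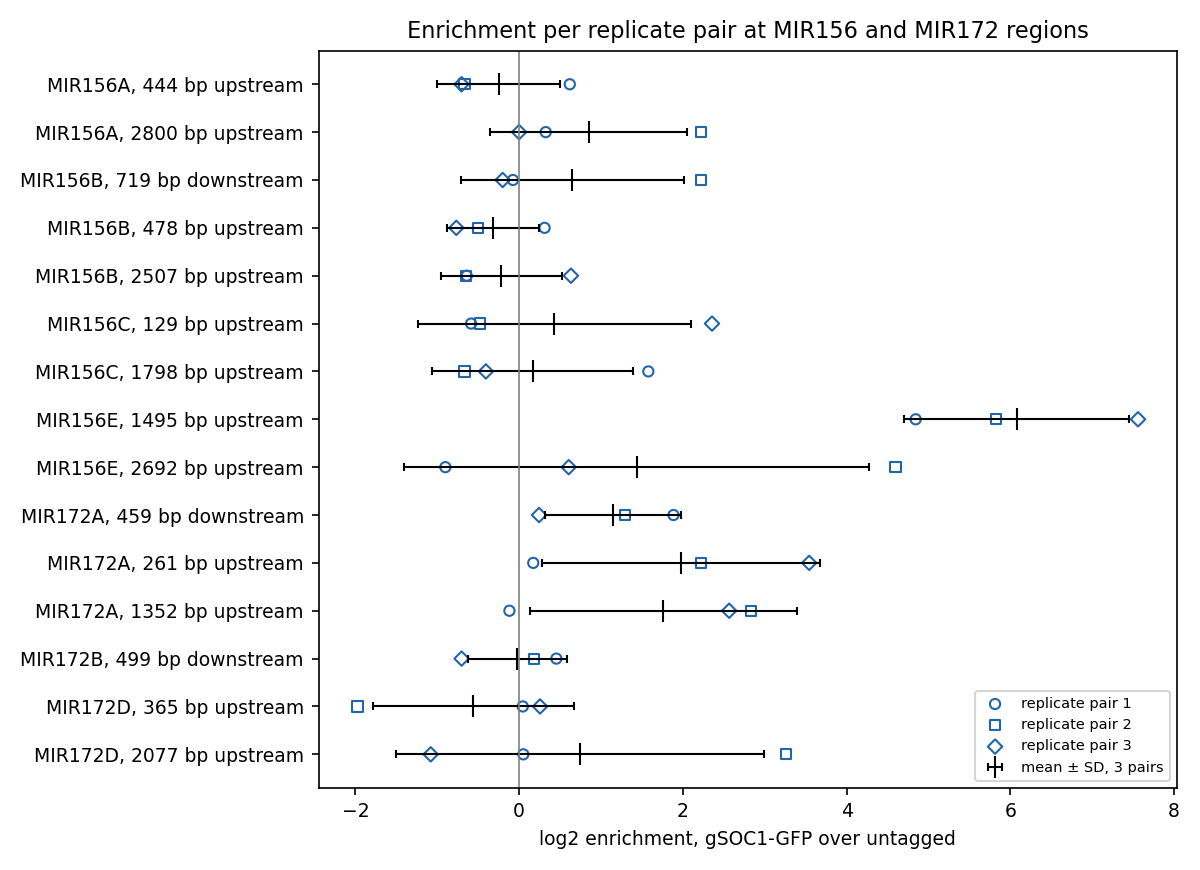
Log2 enrichment of gSOC1-GFP over untagged for each replicate pair (open blue circles, squares and diamonds for pairs 1, 2 and 3) at the 15 regions, with black bars for mean ± SD over 3 pairs. The lowest pair at the MIR156E region 1495 bp upstream, 4.84, lies above the highest pair of any other region, 4.60, and for 11 of the 15 regions the size of the mean is below its SD.

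The remaining MIR156 genes with a region in the windows, MIR156A, MIR156B and MIR156C, showed no call. MIR156D and MIR156F were named by no row and are treated below. MIR156C (AT4G31877), one of the main sources of miR156 in seedlings, had a region 129 bp upstream with 32, 12 and 23 reads in gSOC1-GFP and 22, 5 and 1 in untagged libraries. The log2 enrichment was -0.59, -0.48 and 2.36 in pairs 1, 2 and 3 (0.43 ± 1.67, SD, n = 3). Pair 3 alone was above 0, where the untagged library had a single read, and in the authors' deposited table the FDR was below 0.05 there alone (0.0218). Without pair 3 the mean was -0.53. The ratio in pair 3 was 6.55, with an exact binomial 95% interval of 1.06 to 269.9. The region 1798 bp upstream of MIR156C had 18, 4 and 5 gSOC1-GFP reads against 2, 2 and 2 untagged reads, and a log2 enrichment of 0.17 ± 1.23. In the authors' deposited table its FDR was below 0.05 in replicate 1 alone (0.0181), so the regions of this gene passed in different replicates.

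MIR156A (AT2G25095), the other main source of miR156 in seedlings, had its best-ranked region 444 bp upstream. It held 15, 4 and 6 reads in gSOC1-GFP libraries and 4, 2 and 3 in untagged libraries, a log2 enrichment of -0.25 ± 0.75 (SD, n = 3). Pair 1 was above 0 and the other pairs were below it. With so few reads the intervals were wide: the ratio of pair 1 was 1.68, with an exact 95% interval of 0.534 to 6.94. Its other region, 2800 bp upstream and 170 bp downstream of AT2G25100, held 9, 3 and 0 gSOC1-GFP reads against 3, 0 and 0 untagged reads.

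At MIR156B (AT4G30972), which RefSeq places within the noncoding RNA gene AT4G30975, 3 regions were listed, and each was centred within another annotated gene. The region 2507 bp upstream, within the transcript of AT4G30970, had the most reads of all 15 in gSOC1-GFP replicate 1 after that of MIR156E. It held 183, 15 and 17 reads in gSOC1-GFP libraries and 128, 7 and 3 in untagged libraries, a log2 enrichment of -0.22 ± 0.74 (SD, n = 3). Scaled, the tagged library of replicate 1 was the lower one there, at 337 CPM against 527 CPM in the untagged library. The ratio was 0.639, with an exact 95% interval of 0.507 to 0.807. It rests on replicate 1 TMM factors of 0.820 for the tagged and 0.613 for the untagged library, whose error the interval does not cover. As many untagged reads in replicate 1 were found at 1.47% of all regions. The MIR156B region 478 bp upstream had a log2 enrichment of -0.32 ± 0.56, and that 719 bp downstream, centred within AT4G30975 itself, had 0.65 ± 1.36. Beyond the end of AT4G30975 lay a further pair of regions, outside the windows of both genes and not called. That 1015 bp downstream of AT4G30975 had a log2 enrichment of 1.14 ± 2.01, with an FDR above 0.05 in every replicate. That 1813 bp downstream, centred within LRL2, had 0.90 ± 1.55, and its FDR in the authors' deposited table was below 0.05 in replicate 3 alone (0.0218).

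Of the MIR172 genes, MIR172A (AT2G28056) carried the most enriched regions, none of them past the authors' FDR in every replicate. The region 459 bp downstream held 89, 18 and 21 reads in gSOC1-GFP libraries, against 10, 2 and 5 in untagged libraries. On the scaled measure these were 164, 94.4 and 73.9 CPM against 41.2, 35.8 and 61.8, so every tagged library was above every untagged one, as at 8.48% of all regions. The log2 enrichment was 1.89, 1.30 and 0.24 in pairs 1, 2 and 3 (1.14 ± 0.83, SD, n = 3). The FDR in the authors' deposited table was 2.61e-11, 0.113 and 0.288, below 0.05 in replicate 1 alone, where 10.1% of all regions passed. edgeR with the block gave a log2 fold change of 1.30 (unadjusted p = 0.0647, adjusted p = 1.00). This region was also 962 bp upstream of AT2G28053, annotated as a pseudogene by RefSeq.

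Upstream of MIR172A, the region at 261 bp held 23, 3 and 13 reads in gSOC1-GFP and 9, 0 and 0 in untagged libraries. Its log2 enrichment was 0.17, 2.22 and 3.54 in pairs 1, 2 and 3 (1.98 ± 1.70, SD, n = 3), above 0 in each pair, as at 16.4% of all regions. The larger values of pairs 2 and 3 were set by untagged counts of 0, and the lower bounds of their exact 95% intervals were 0.121 and 0.868, so a ratio of 1 was not excluded by counting error. edgeR with the block gave 1.04 for this region (unadjusted p = 0.215, adjusted p = 1.00). A further region 1352 bp upstream held 6, 5 and 6 gSOC1-GFP reads against 3, 0 and 0 untagged reads, with a log2 enrichment of 1.76 ± 1.63. It was below 0 in pair 1.

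MIR172B (AT5G04275), whose activation tagging causes early flowering and which SPL factors activate, had 1 region in its windows, 499 bp downstream. It held 7, 4 and 6 reads in gSOC1-GFP libraries and 2, 1 and 3 in untagged libraries, a log2 enrichment of -0.02 ± 0.61 (SD, n = 3). At this depth a moderate change would not be detectable, since the exact 95% interval of pair 1 ran from 0.298 to 15.4. No row named MIR172B for a region within 3000 bp upstream, and the deposited columns give only the closest gene on each side. For MIR172D (AT3G55512) the best-ranked region, 2077 bp upstream, held 14, 7 and 6 gSOC1-GFP reads against 6, 0 and 4 untagged reads, with 0.74 ± 2.25. The closer one, 365 bp upstream, held 7, 2 and 17 against 3, 3 and 4 and had the lowest mean of all 15 regions, -0.56 ± 1.23. In neither did the pairs share a direction.

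**Figure D3:**
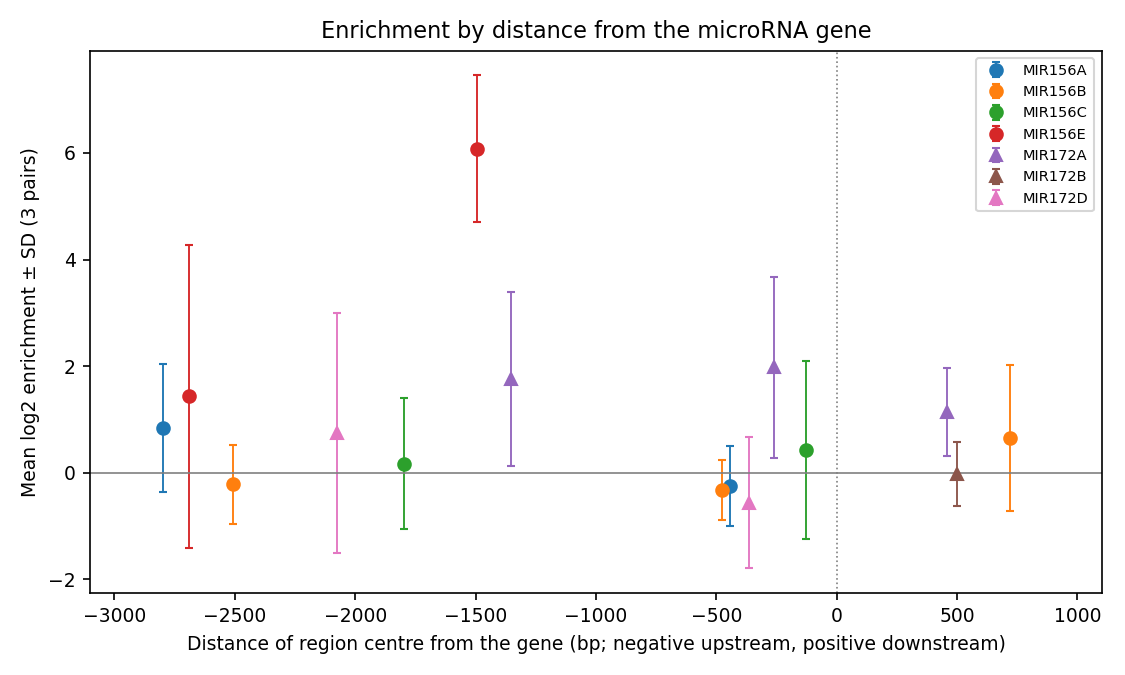
Mean log2 enrichment ± SD over 3 pairs (vertical axis) against the distance in bp of the region's centre from the microRNA gene (horizontal axis, upstream negative), with circles for MIR156 and triangles for MIR172 genes. The MIR156E region at 1495 bp upstream lies at 6.08, and the other 14 regions lie between -0.56 and 1.98 at all distances.

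Among themselves the regions thus differed mainly between the MIR156E site and the rest. The MIR156E site made up 52.1%, 69.4% and 57.8% of the reads of all 15 regions in gSOC1-GFP replicates 1, 2 and 3, against 2.74%, 3.85% and 0% in untagged replicates 1, 2 and 3. The other 14 regions together held 979, 556 and 588 CPM in gSOC1-GFP libraries and 1169, 448 and 494 in untagged libraries, and these ranges overlapped. The median log2 enrichment of the 15 regions was 0.65 and that of the 14 was 0.54, beside 0.31 over all listed regions. Of the 15 regions, 10 had a mean above 0, beside 67.6% of all regions, and 3 were above 0 in every pair, beside 16.4%. An FDR below 0.05 in exactly 1 replicate was found at 4 of the 15 regions, beside 9.73% of all regions, and 5 of the 15 passed it in at least 1 replicate, beside 12.4%. With the MIR156E site counted, 3, 2 and 2 of the 15 passed in replicates 1, 2 and 3, where 10.1%, 2.86% and 3.16% of all regions did. Ordered by their highest region the genes were MIR156E (6.08), MIR172A (1.98), MIR156A (0.85), MIR172D (0.74), MIR156B (0.65), MIR156C (0.43) and MIR172B (-0.02). From MIR172A on, neighbours in this order differed by less than the SD of their pairs.

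By family, the 9 MIR156 regions had a median of 0.43 and the 6 MIR172 regions one of 0.94. The 3 highest MIR172 regions were those of MIR172A, of which 2 had no read in untagged replicates 2 and 3, and the difference between the families was not tested. Over all 15 regions the untagged count was 0 in at least 1 library at 7, and it was under 10 in both untagged replicates 2 and 3 at every region.

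**Figure D4:**
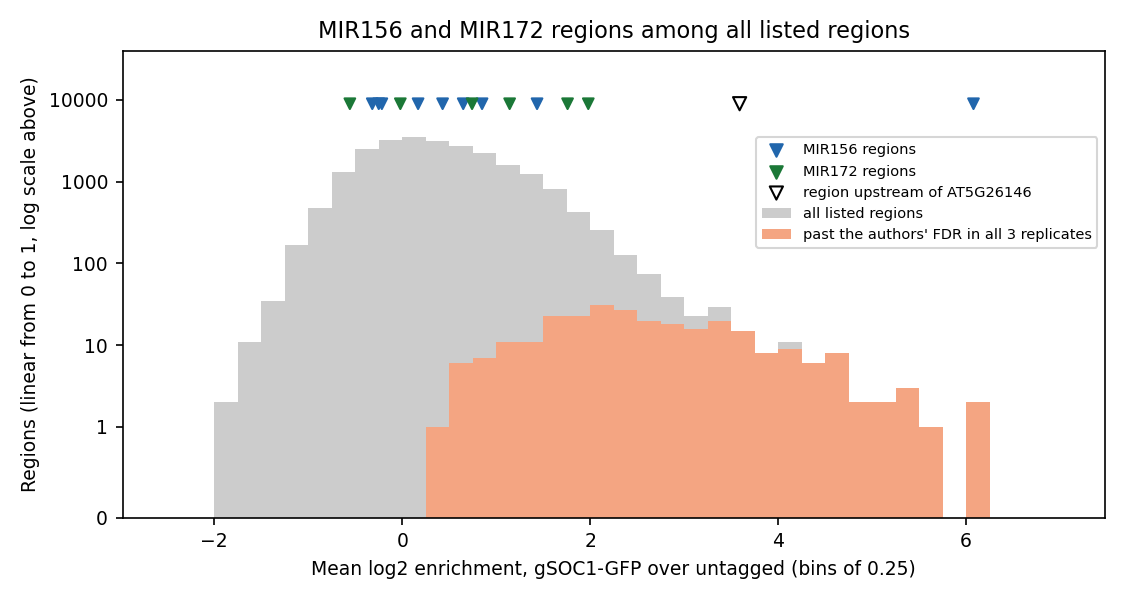
Number of listed regions by mean log2 enrichment in bins of 0.25 (grey, all 24032; orange, the 270 past the authors' FDR in every replicate; vertical axis linear from 0 to 1 and logarithmic above), with triangles above for MIR156 regions (blue), MIR172 regions (green) and the region upstream of AT5G26146 (open). The MIR156E region at 6.08 lies at the right end of the distribution, and the other 14 regions lie from -0.56 to 1.98.

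No row was given to MIR156D (AT5G10945), MIR156F (AT5G26147) or MIR172C (AT3G11435) in the windows. MIR172C was named by 1 row, a region 1359 bp downstream and outside the window of 1000 bp, with 5, 0 and 9 gSOC1-GFP reads against 3, 0 and 0 untagged reads (0.92 ± 1.86). The downstream region just inside the window belonged to MIR156B at 719 bp. On the upstream side the last region inside was that of MIR156A at 2800 bp (0.85 ± 1.20), and the first outside was that of MIR156A at 3213 bp (0.31 ± 1.96). Moving either bound to the next region would thus have added no called region.

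MIR156D and MIR156F were named by no row at any distance. The deposited columns give only the closest gene on each side, and RefSeq places MIR156F within the long noncoding RNA gene AT5G26146 and MIR156D within AT5G10946. The distances of regions from these 2 microRNA genes were therefore not in the table, and a region near AT5G26146 or AT5G10946 may lie within 3000 bp of the microRNA gene inside it. The region 2557 bp upstream of AT5G26146, on chromosome 5 from 9133209 to 9133503, held 107, 46 and 35 reads in gSOC1-GFP libraries and 6, 0 and 2 in untagged libraries. Every tagged library was above every untagged one on the scaled measure, with 197, 241 and 123 CPM against 24.7, 0 and 24.7, and the log2 enrichment was 2.79, 5.84 and 2.14 in pairs 1, 2 and 3 (3.59 ± 1.98, SD, n = 3). It ranked 128 in the authors' deposited table, with an FDR of 1.84e-17, 1.80e-07 and 0.00456, and it passed edgeR with the block at a log2 fold change of 3.20 (adjusted p = 0.0247), though not without the block (adjusted p = 1.00). DESeq2 gave it an adjusted p of 0.0291. The deposited columns named no other gene within the windows around it. This region was given to the noncoding RNA gene and not to MIR156F, and it was looked up because MIR156F lies inside that gene, after its values were known.

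Upstream of AT5G10946, the gene around MIR156D, there were 2 regions, and neither was called. At 497 bp the reads were 59, 23 and 24 in gSOC1-GFP libraries against 18, 4 and 11 in untagged libraries, a log2 enrichment of 0.19 ± 0.75 (SD, n = 3). The FDR in the authors' deposited table was below 0.05 in replicate 1 alone (0.00543). The second, at 138 bp, had 0.43 ± 0.91.

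Among all microRNA genes annotated by RefSeq, 102 had a region in the windows and 3 of them, 2.94%, had one past the authors' FDR in every replicate. The other 2, named after their values were seen, were MIR169a, of the family that targets NF-YA factors, and MIR390a, whose product acts in trans-acting siRNA production. The region 940 bp upstream of MIR169a had a log2 enrichment of 2.03 ± 0.61 and that 846 bp upstream of MIR390a one of 2.30 ± 0.82 (SD, n = 3 each). Neither passed edgeR with the block (adjusted p = 0.431 and 0.204), whereas the MIR156E region did.

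Genes on which the microRNAs act were read in the same way. Of 11 miR156-targeted SPL genes, 9 had a region and 0 had one past the authors' FDR in every replicate, beside 1.75% of genes with one. At so low a share over all genes, 0 of 9 does not set the SPL list apart. edgeR called 0 of the 15 SPL regions with or without the block, beside 0.379% and 0 of all regions. Without the block 0 had an unadjusted p under 0.05, beside 3.17% of all regions. DESeq2 called 0 of the 3 it gave an adjusted p, beside 1.61% of all regions it adjusted. SPL4, which promotes flowering, had the highest mean, 1.84 ± 0.23 at 28 bp upstream, from 12, 2 and 4 gSOC1-GFP reads against 1, 0 and 0 untagged reads. SPL9 and SPL15, which activate MIR172 genes and flowering, had 0.16 ± 0.87 at 110 bp upstream and 0.55 ± 1.32 at 31 bp upstream. The median over the SPL regions was 0.47.

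All 6 miR172-targeted AP2-type genes had a region, and 3 had one past the authors' FDR in every replicate, beside 1.75% of genes with one. They were SMZ (4.29 ± 0.36), TOE3 (3.60 ± 1.30) and AP2 (2.68 ± 0.62 and 1.56 ± 0.53), which repress flowering or, for AP2, also specify floral organs. The SMZ region, 2628 bp upstream, was also 2357 bp upstream of TON1A and thus closer to that gene, while those of TOE3 and AP2 were given to no second gene. edgeR with the block called those of SMZ (adjusted p = 0.00152) and TOE3 (adjusted p = 0.00938), beside 0.379% of all regions. Without the block it called 0 regions of these genes, as it called 0 in the whole table. The best region of SNZ, 871 bp upstream, held 112, 25 and 42 gSOC1-GFP reads against 12, 4 and 2 untagged reads (1.73 ± 0.81) and passed the FDR in 2 replicates; it was also 102 bp downstream of AT2G39260. The list, chosen with earlier results of these data known, had a median of 1.20 over 16 regions. Among 6 genes that make or use microRNAs (DCL1, HYL1, SE, HEN1, HST and AGO1), 4 had a region. Their 8 regions had a median of 0.18. Of these regions 0 were called by the FDR, beside 1.12% of all regions. With or without the block edgeR called 0 of them, beside 0.379% and 0 of all regions. At an unadjusted p under 0.05 without the block there were 0, beside 3.17%. DESeq2 called 0 of the 3 to which it gave an adjusted p, beside 1.61% of all regions it adjusted. Of the further family members MIR156G, MIR156H and MIR172E, MIR156H alone had a region, 746 bp upstream and 174 bp upstream of AT5G55840, at -0.65 ± 1.04.

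**Figure D5:**
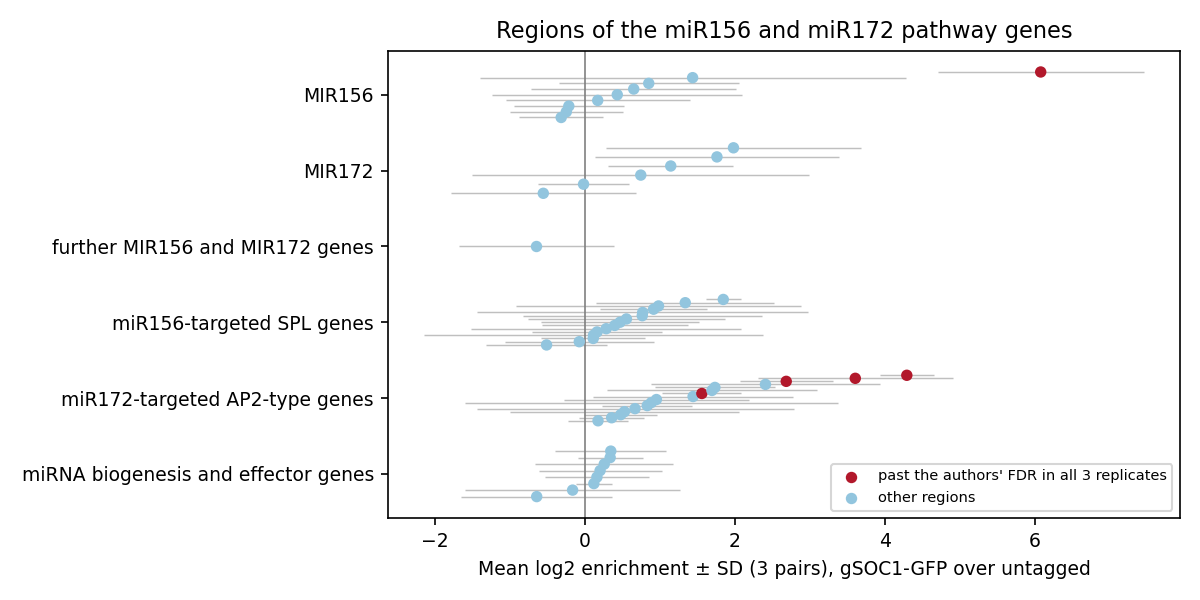
Mean log2 enrichment ± SD over 3 pairs for each region of the microRNA genes, their targets and the microRNA biogenesis genes, 1 row of points per list, in red where the region passed the authors' FDR in every replicate. Red points are 1 region of MIR156 (6.08) and 4 regions of the AP2-type genes (1.56 to 4.29). The SPL and biogenesis lists have none, where 1.12% of all listed regions passed.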

How the data were processed

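The authors deposited 1 table of 24032 candidate regions with a text defining its columns. The deposited read counts per region and library were not normalised. The authors' FDR is a Benjamini-Hochberg p-value per replicate, as the deposited column text defines it, and its test is unstated. The authors' log2 column is a log2 rank product, and their rank score orders regions by it; both are deposited values and only the rank was used. The build was TAIR10, per the submitters' processing notes. For the aligner, region caller and read filters the sources used here give nothing. Starts are as deposited, and ends were computed from start and length. Symbols came from the RefSeq gene table (TAIR10.1), which held all 36 listed genes and was used only for names, gene types and which genes lie within each other.

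Fits covered all 24032 regions with Benjamini-Hochberg adjustment at 0.05: edgeR 4.0.16 (R 4.3.3; quasi-likelihood, TMM, no count filter) without a replicate block as the design, and DESeq2 1.42.0 as an alternative. Deviations from the group means of same-numbered libraries correlated at 0.498, 0.123 and 0.139, each above the bound of 0.1. The replicate numbers in the titles were therefore taken to pair the samples, and values with the block stand beside the results. Tagged replicate 3 with untagged replicate 2 correlated at 0.131, and tagged replicate 2 with untagged replicate 3 at 0.088. Deviations within a group cancel out, so the shared departure of replicate 1 alone can give such values. These correlations therefore do not show pairing in replicates 2 and 3. Exact permutation of 3 against 3 libraries cannot go below p = 0.1. The labels do not say whether replicate libraries are separate plant batches, so p-values reflect the spread between libraries, perhaps a technical one. Named were all 10 genes and every region in their windows, with full counts for those past the FDR in any replicate and the best of each other gene, and pathway genes with a call; SPL4, SPL9, SPL15, SNZ and MIR156H were named after their values were seen. The genes and lists were chosen with earlier results of these data known.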

Additional observations from a re-analysis of the deposited data

Results flagged for a closer look

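The region 2557 bp upstream of AT5G26146, the RefSeq gene that contains MIR156F, carried a signal in a row that the deposited gene columns gave to none of the 10 microRNA genes. Its mean log2 enrichment over the untagged libraries was 3.59 ± 1.98 (SD, n = 3 pairs), with 107, 46 and 35 gSOC1-GFP reads against 6, 0 and 2 untagged reads. It lay in a stretch of 4276 bp between AT5G26140 and AT5G26146, and 53 called regions had a higher mean enrichment. Its distance from MIR156F itself is not in the table, and whether it bears on MIR156F was not tested.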

How the results depend on the processing

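The call of the MIR156E region by the authors' FDR held at 0.01, at 0.1, with at least 2 replicates and without each replicate, always with 1 region and 1 gene. With 1000 bp upstream both numbers were 0, since the region lies farther away. Regions past the FDR numbered 270, against 630 with at least 2 replicates, and 295 to 468 without each replicate, which asks for fewer replicates by construction. edgeR without the block called 0 regions. It called 18 with library totals, 80 with a count filter and 91 with the replicate block, DESeq2 called 94, and each included 1 region of these genes, that of MIR156E. With the block, the number was 211 with library totals and 71, 119 and 69 without replicates 1, 2 and 3, again with 1 region of these genes each; these fits were chosen after seeing the data. Without the block, leaving out libraries or pairs gave 0 to 86 regions, and 0 to 1 regions of these genes. Without the replicate 1 pair 86 were called and without untagged replicate 1 alone 51, each time with the MIR156E region. Its log2 enrichment was 4.20 with a prior count of 10, which pulls low untagged counts toward no enrichment, and 5.34 to 6.70 without each replicate pair. Its adjusted p ranged from 1.22e-11 to 1.00. None of the other 14 regions was called by edgeR or DESeq2 where it was tested; the count filter kept only 7 of the 15 and DESeq2 gave only 5 an adjusted p. Leaving out replicates 1, 2 and 3 turned the sign of the mean at 1, 4 and 2 of the 15 regions, none of them called. Untagged replicates 2 and 3 had under 10 reads at every one of the 15 regions, which leaves ratios against them with wide counting intervals. The cause of the differences between settings was not tested.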
